A study of Mus musculus with 14 samples.

Results

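Chylomicrons are the particles in which the gut exports dietary fat. Measured here were 10 genes that build them: the scaffold Apob and the lipid-transfer subunit Mttp, the surface apolipoproteins Apoa1, Apoa4, Apoc2 and Apoc3, the triglyceride-synthesis enzymes Mogat2, Dgat1 and Dgat2, and the transport GTPase Sar1b. They were chosen by symbol as the rows of these genes in a deposited expression table of 46882 entries, and all 10 were present and passed the filter on low values. RNA came from whole ileum, the last stretch of the small intestine, of wild-type C57BL/6N mice, an inbred strain, in 14 libraries of 1 strain and 1 tissue. The 4 P24 libraries came from untreated mice at postnatal day 24, around the end of weaning, and the 4 P14 libraries from untreated suckling-age mice at day 14. The 3 rmIl22 libraries came from mice given intraperitoneal recombinant mouse interleukin-22 (IL-22), a cytokine that acts on gut epithelium, at 0.1 µg per g body weight in 100 µL saline on days 14 and 15. The 3 PBS libraries came from mice given the saline alone, and both injected groups were killed on day 16. In the sample labels the age entry reads day 24 under rmIl22 and day 14 under PBS, which does not match the stated day 16.

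In an enterocyte, absorbed fatty acids and monoacylglycerol are joined again into triglyceride in the endoplasmic reticulum (ER), first by Mogat2 and then by a diacylglycerol acyltransferase. The transfer protein that contains Mttp loads this triglyceride onto Apob as the chain is made, and the particle leaves the ER in a coated carrier whose budding Sar1b controls. Small apolipoproteins settle on the particle surface and later govern how lipoprotein lipase unloads it. Milk is a fat-rich diet, and suckling rodents carry out this work along much of the small intestine.

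Apoa1, Apoc3 and Apoa4 lie side by side on mouse chromosome 9 within 14.9 kb (mm10, GENCODE M21). Apoa1 (ENSMUSG00000032083.8) spans 46228580 to 46230466 on the plus strand, Apoc3 (ENSMUSG00000032081.10) spans 46232933 to 46235636 on the minus strand, and Apoa4 (ENSMUSG00000032080.6) spans 46240696 to 46243459 on the plus strand. The upstream bases of Apoa1 and Apoa4 are shown because these neighbours, about equally abundant at P14, were far apart at P24. They are read 5′ to 3′ on the plus strand from RefSeq (GRCm38.p6) and end 1 base before the GENCODE gene start. Capitals mark a match to CAAAGTNCA, the core of the binding motif of HNF4, a nuclear receptor of enterocytes.
Apoa1, chr9:46228380-46228579: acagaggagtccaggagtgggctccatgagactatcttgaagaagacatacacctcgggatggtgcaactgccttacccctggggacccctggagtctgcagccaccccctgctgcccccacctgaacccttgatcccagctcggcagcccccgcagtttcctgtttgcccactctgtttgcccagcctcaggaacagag
Apoa4, chr9:46240594-46240695: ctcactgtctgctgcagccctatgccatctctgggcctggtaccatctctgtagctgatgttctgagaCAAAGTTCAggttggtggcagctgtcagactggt
The search covered the 250 bases before each RefSeq gene start on both strands. For Apoa4 that start lies at 46240844, which is 148 bases downstream of the GENCODE start. The Apoa4 match lay at -182 to -174 from the RefSeq start and at -34 to -26 from the GENCODE start, and Apoa1 held no match. Of 32841 mouse promoters, 392 (1.2%) held one, and 6 of the 10 genes had a promoter entry. Whether HNF4 acts on Apoa4 or Apoa1 was not tested. In the same windows AGGTCA, a nuclear receptor half-site, was found in Apoc2 (14.0% of all promoters) and TATAAA was found in Apob (12.4% of all promoters).

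Values are TPM, a level per transcript length that sums to 1 fixed total per library, and fold changes are on the log2(TPM + 1) scale. Libraries are named by the numbers in their column headers, which for P24 and P14 differ from the labels' replicate numbers. Depth recovered from the TPM was 35.7 to 46.5 M reads on genes per library, and the lowest value of any of the 10 genes, Apoc3 in P24 library 8, still rested on 805 reads, so counting error is small beside the spread between libraries. The rmIl22 library 2 stood apart from its group. Its chi-square per degree of freedom against rmIl22 libraries 1 and 3 was 254.37 and 221.93, while those libraries differed from each other by 49.69, and the other groups' pairs gave 30.87 to 77.92. Tests of rmIl22 against PBS are therefore also given without it. The library did carry the IL-22 response: Saa1, a serum amyloid A gene of that response, had 1870, 1882 and 1634 TPM in rmIl22 libraries 1, 2 and 3, against 24.7, 27.8 and 7.28 TPM in PBS libraries 1, 2 and 3. The antimicrobial lectin genes Reg3b and Reg3g were highest in rmIl22 library 2. Reg3b had 16052, 50775 and 14488 TPM in the rmIl22 libraries, against 3652, 3022 and 225.7 TPM in the PBS libraries. Reg3g had 3983, 8476 and 3506 TPM, against 416.9, 259.9 and 52.2 TPM.

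Markers of position along the gut also differed between libraries of 1 group. Gata4, a transcription factor of the upper small intestine, had 0.235, 1.36, 0.226 and 0.145 TPM in P24 libraries 1, 2, 6 and 8, against 0.119, 0.378, 6.57 and 7.51 TPM in P14 libraries 1, 2, 4 and 5. It had 0.0983, 15.8 and 0.177 TPM in rmIl22 libraries 1, 2 and 3, against 10.8, 13.8 and 17.4 TPM in PBS libraries 1, 2 and 3. Slc10a2, the ileal bile acid transporter, had 366.2, 35.7 and 236.8 TPM in the rmIl22 libraries, against 19.8, 18.3 and 5.13 TPM in the PBS libraries. For Gata4 and Slc10a2, rmIl22 library 2 thus lay nearer the PBS libraries than the other rmIl22 libraries did. The same held for the upper-gut marker Slc40a1 and the ileal markers Fabp6, Slc51a and Osr2. Slc51b, also an ileal marker, lay closer to its own group in rmIl22 library 2. It had 903.1, 738.3 and 834.7 TPM in rmIl22 libraries 1, 2 and 3, against 417.3 to 472 TPM in PBS. The upper-gut marker Cybrd1 was lowest in rmIl22 library 2, at 2.76 TPM, against 3.27 to 4.53 TPM in PBS. The 5 upper-gut markers summed to 75.8 to 111.9 TPM at P24, 181.7 to 243.6 at P14, 178.1 to 265.7 with rmIl22 and 228.7 to 267 with PBS, and Pdx1 and Onecut2 among them stayed under 1 TPM in all libraries. The 5 ileal markers summed to 17483 to 24748 TPM at P24, 862.9 to 2155 at P14, 2980 to 12172 with rmIl22 and 1343 to 4126 with PBS. Ddx3y, a Y-linked gene, was at 16.8 to 31.6 TPM in P24 library 1, P14 libraries 1 and 2, rmIl22 library 1 and all PBS libraries, and at most 0.0855 TPM elsewhere, so sex and group cannot be told apart in full for rmIl22 against PBS.

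**Figure D1:**
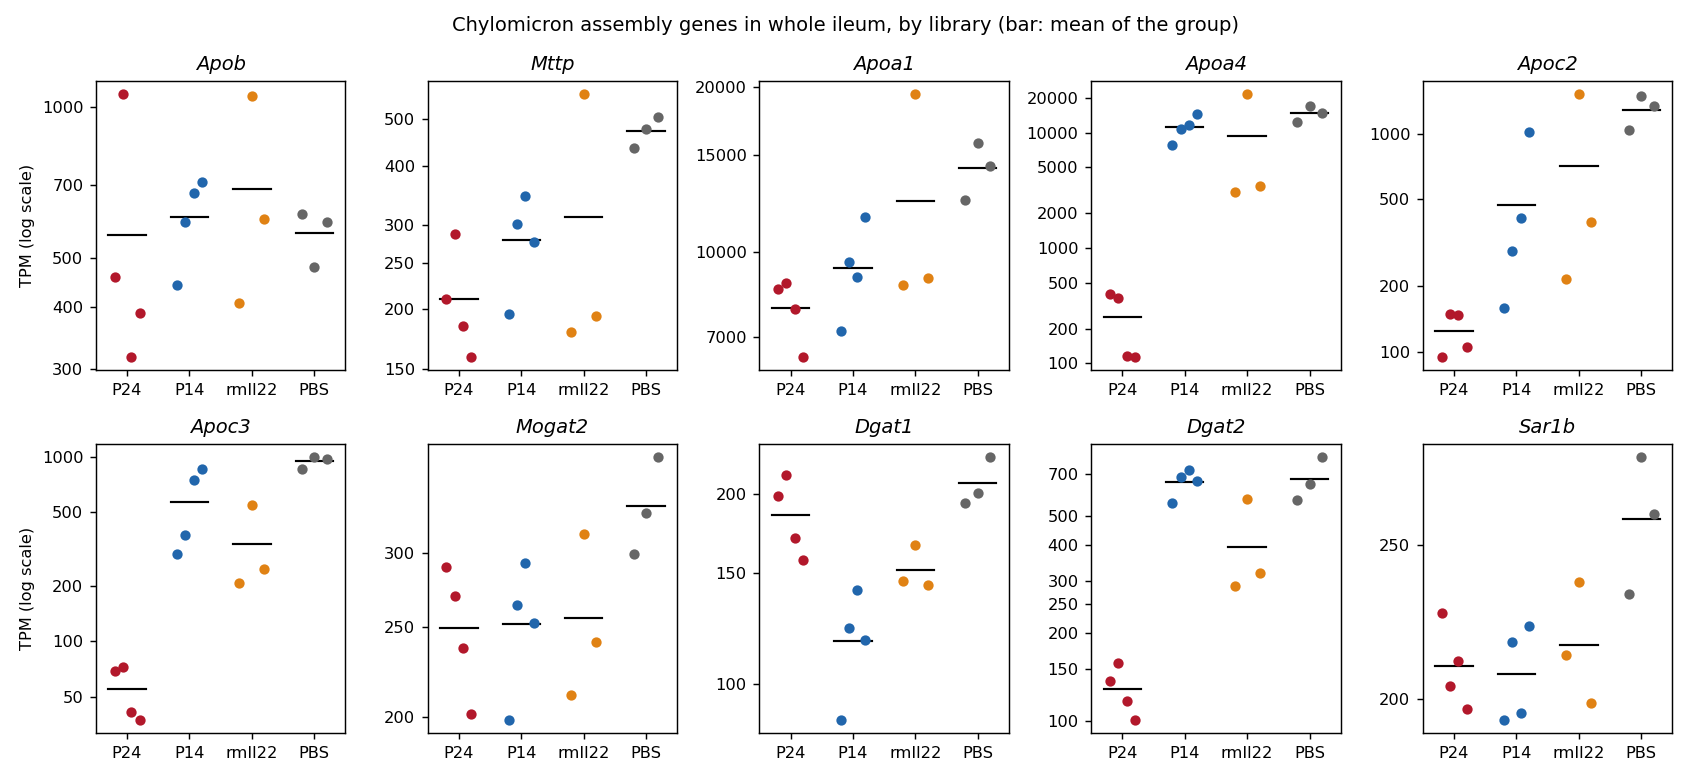
TPM (log axis, its range differing between panels) of the 10 genes in every library, grouped as P24, P14, rmIl22 and PBS; points are libraries in order of their number and bars are group means. Apoa4, Apoc3 and Dgat2 at P24 lie well below all other libraries, and rmIl22 library 2, the middle orange point, is the highest of its group for all 10 genes.

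At P24 the chylomicron genes were split. Apoa4, Apoc3, Dgat2 and Apoc2 fell. Dgat1 rose in TPM but not when scaled to epithelial markers, which put the median log2 fold change of all genes at -1.01. The scaffold, loading and export genes Apob, Mttp and Sar1b, with Apoa1 and Mogat2, did not pass the test. By limma with Benjamini-Hochberg adjustment over 14651 genes, 5 of the 10 genes passed an adjusted p of 0.05, against 58.3% of all genes tested. The 4 lower calls stand beside 43.7% of all genes and the 1 higher call beside 14.6%, so the count itself is close to the background of this comparison. The median log2 fold change was -0.34 for the 10 genes and -0.25 for all genes tested. The same 5 genes had groups that did not overlap, 1 higher and 4 lower, against 52.4% of all genes (13% higher, 39.4% lower). Together the 10 genes made up 1.06, 1.16, 0.942 and 0.788% of TPM in P24 libraries 1, 2, 6 and 8, against 1.71, 2.31, 2.42 and 3.03% in P14 libraries 1, 2, 4 and 5. Without Apoa1 and Apoa4 these shares were 0.135 to 0.242% at P24 and 0.213 to 0.411% at P14. In whole tissue, fewer cells of a type and less RNA per cell cannot be told apart.

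Apob, the protein that each chylomicron carries as its scaffold (ENSMUSG00000020609.14, chromosome 12, 7977648 to 8016835, plus strand), had 459.1, 1062, 317.1 and 387.9 TPM in P24 libraries 1, 2, 6 and 8, against 441, 591, 673.6 and 708.7 TPM in P14 libraries 1, 2, 4 and 5. The groups overlapped: P24 library 2 was the highest of the 8, P24 library 1 was just above P14 library 1, and P24 libraries 6 and 8 were the lowest. The log2 fold change was -0.26 (SE 0.31, limma adjusted p = 0.486). Without P24 library 2 it was -0.63 (limma adjusted p = 0.0119). Mttp (ENSMUSG00000028158.14, chromosome 3, 138089854 to 138144968, minus strand) had 210.8, 287.9, 185.1 and 159 TPM in the P24 libraries, against 196.1, 302, 345.5 and 276.2 TPM in the P14 libraries. Its groups overlapped as well, with a log2 fold change of -0.41 (SE 0.20, limma adjusted p = 0.0923). That call also turned on single libraries: the value was -0.57 both without P24 library 2 (limma adjusted p = 0.0188) and without P14 library 1 (limma adjusted p = 0.0185). Mttp overlaps Trmt10a and Gm43691 on the opposite strand, and the strand setting of the counting is not given in the sources used here.

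Apoa1, the main protein of high-density lipoprotein and a surface protein of fresh chylomicrons, was among the most abundant transcripts at both ages. It had 8535, 8780, 7871 and 6425 TPM in P24 libraries 1, 2, 6 and 8, against 7158, 9593, 9010 and 11587 TPM in P14 libraries 1, 2, 4 and 5. The groups overlapped, and the log2 fold change was -0.23 (95% interval -0.63 to 0.17, limma adjusted p = 0.295). By mean TPM it ranked 13 among all genes at P24 and 8 at P14.

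Apoa4, a chylomicron surface protein that rodents make in response to fat in the gut, had the largest fall of the 10 genes. It had 400.4, 368.7, 115.9 and 113.2 TPM in P24 libraries 1, 2, 6 and 8, against 7774, 10678, 11672 and 14619 TPM in P14 libraries 1, 2, 4 and 5. The lowest P14 library was far above the highest P24 library, and P24 libraries 1 and 2 were above P24 libraries 6 and 8. Apoa4 averaged 249.5 ± 156 TPM at P24 and 11186 ± 2820 TPM at P14 (SD, n = 4 each), 44.8-fold lower at P24, with a log2 fold change of -5.69 (SE 0.40, limma adjusted p = 3.50e-07). Its rank among all genes was 414 at P24 and 7 at P14. P14 libraries 1 and 2, with Gata4 at 0.119 and 0.378 TPM, had 7774 and 10678 TPM of Apoa4. These are also the P14 libraries with Ddx3y, and P24 library 1, the P24 library with Ddx3y, had 400.4 TPM. The part of gut position and of sex in the fall was not tested. Apoa4 overlaps Gm10680 (839 bases) and Gm47528 (1337 bases) on the opposite strand, and reads of such partners cannot be told apart where strand was not counted. Gm10680, which the deposited table holds, had 2.44, 1.43, 0.69 and 0.942 TPM in the P24 libraries, against 34.9, 57.2, 44.7 and 103 TPM in the P14 libraries.

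Apoc3, an inhibitor of lipoprotein lipase and of remnant uptake, had 69.2, 72.2, 41.5 and 37.5 TPM in P24 libraries 1, 2, 6 and 8, against 296.4, 374.4, 751 and 853.3 TPM in P14 libraries 1, 2, 4 and 5. Both ages split into pairs, and the lower P14 pair, libraries 1 and 2, was above every P24 library. Apoc3 averaged 55.1 ± 18.1 TPM at P24 and 568.8 ± 275 TPM at P14 (SD, n = 4 each), with a log2 fold change of -3.26 (SE 0.33, limma adjusted p = 7.46e-06). Apoc2, the activator of lipoprotein lipase (ENSMUSG00000002992.17, chromosome 7, 19671579 to 19677941, minus strand), had 94.7, 148.7, 148.4 and 104.8 TPM at P24, against 158.3, 291.2, 413.1 and 1023 TPM at P14. Its groups were separated only narrowly, by 148.7 TPM in P24 library 2 and 158.3 TPM in P14 library 1. The log2 fold change of Apoc2 was -1.61 (SE 0.43, limma adjusted p = 0.00751), and without P14 library 5 it was -1.13 (limma adjusted p = 0.00974). At P14 both C apolipoproteins were lowest in the libraries with low Gata4, which are also the P14 libraries with Ddx3y. The part of gut position and of sex in the size of these falls was not tested. Apoc2 shares 6358 bases with the readthrough gene Gm44805 on the same strand, which has no entry in the deposited table, so how such reads were counted is not known here.

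The authors' deposited table for this comparison gave log2 fold changes of -5.17 for Apoa4 (adjusted p = 3.98e-13), -3.05 for Apoc3 (4.21e-10), -1.66 for Apoc2 (0.0543), -2.03 for Dgat2 (2.23e-17) and 0.99 for Dgat1 (6.43e-10). In the authors' deposited table Apoc2 was thus just over a threshold of 0.05. The other 5 genes in the authors' deposited table lay between -0.08 for Mttp and 0.33 for Sar1b, with adjusted p-values from 0.0544 to 0.913.

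**Figure D2:**
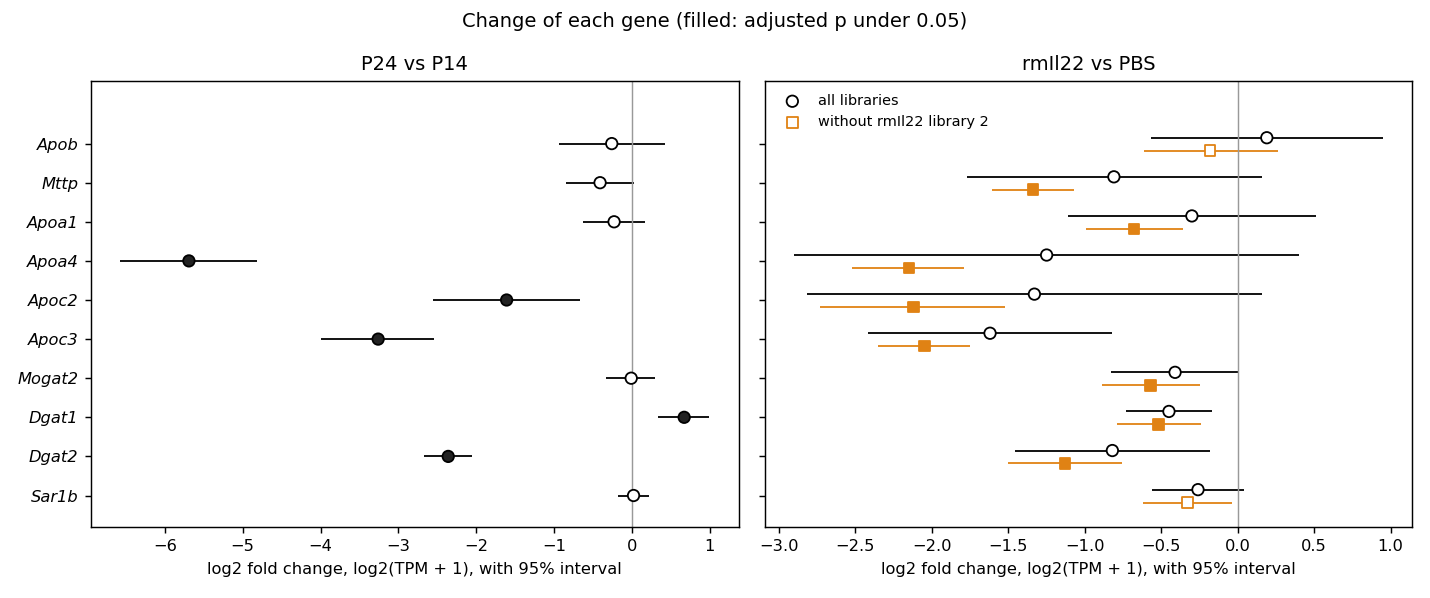
log2 fold change of each gene, on the log2(TPM + 1) scale, with its 95% interval, for P24 against P14 (left) and rmIl22 against PBS (right); the x axes differ in range, and filled symbols have an adjusted p under 0.05. At left Apoa4 (-5.69), Apoc3 (-3.26), Dgat2 (-2.36) and Apoc2 (-1.61) lie below 0 and Dgat1 (0.67) above; at right no gene is filled with all libraries (circles), and 8 are without rmIl22 library 2 (squares).

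The diacylglycerol acyltransferases Dgat1 and Dgat2, unrelated proteins that carry out the same last step of triglyceride synthesis, moved in opposite directions in TPM. Dgat2 (ENSMUSG00000030747.5, chromosome 7, 99153658 to 99182719, minus strand) had 136.6, 157, 117 and 100.6 TPM in P24 libraries 1, 2, 6 and 8, against 556.2, 683.2, 720.9 and 658.7 TPM in P14 libraries 1, 2, 4 and 5. The groups were far apart and tight: 127.8 ± 24.4 TPM at P24 and 654.7 ± 70.5 TPM at P14 (SD, n = 4 each), a log2 fold change of -2.36 (SE 0.14, limma adjusted p = 8.10e-08). Dgat1 (ENSMUSG00000022555.12, chromosome 15, 76502015 to 76511953, minus strand) had 198.6, 214.4, 170.2 and 157.3 TPM in the P24 libraries, against 87.8, 122.5, 140.8 and 117.4 TPM in the P14 libraries. All P24 values of Dgat1 were above all P14 values, with a log2 fold change of 0.67 (SE 0.15, limma adjusted p = 0.00247). The rise of Dgat1 depended on the scaling. Its log2 fold change was 0.96 with libraries scaled to their median gene (limma adjusted p = 3.62e-04). Without the 20 most abundant genes it was 0.75 (limma adjusted p = 6.87e-04). Scaled to epithelial markers, of which 7 rose and 1 fell with age, it was -0.23 (limma adjusted p = 0.0566). The median of all genes under that scaling was -1.01. The log2 fold change of Dgat2 stayed below 0 under every scaling, from -3.26 to -2.07.

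Mogat2, the monoacylglycerol acyltransferase of the enterocyte (ENSMUSG00000052396.7, chromosome 7, 99219084 to 99238619, minus strand), lies beside Dgat2 in the genome, overlaps Gm45012 on the opposite strand and did not pass the test. Mogat2 had 289.7, 269.9, 237 and 201.3 TPM in P24 libraries 1, 2, 6 and 8, against 198.6, 263.5, 292.6 and 252.6 TPM in P14 libraries 1, 2, 4 and 5. The groups overlapped across nearly their whole range, and the log2 fold change was -0.01 (95% interval -0.33 to 0.30, limma adjusted p = 0.942). Sar1b, the GTPase for chylomicron exit from the ER (ENSMUSG00000020386.5, chromosome 11, 51763687 to 51791925, plus strand), had 226.7, 203.8, 211.5 and 197.2 TPM at P24, against 194.1, 217.4, 196.1 and 222.4 TPM at P14. It had the smallest spread of the 10 genes over all 14 libraries (root mean square 0.16 on the log2 scale), and its log2 fold change with age was 0.02 (95% interval -0.18 to 0.22, limma adjusted p = 0.887). The signs of Mogat2 and Sar1b turned with the scaling, to 0.28 and 0.31 with libraries scaled to their median gene and to -0.91 and -0.88 when scaled to epithelial markers.

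The order of the 10 levels in TPM, which is per length, changed with age. At P24 Apoa1 led with 7903 TPM, followed by Apob with 556.6, while Mogat2 (249.5), Apoa4 (249.5), Mttp (210.7), Sar1b (209.8) and Dgat1 (185.1) lay close together with overlapping libraries. Dgat2 (127.8) and Apoc2 (124.1) came next, and Apoc3 was last with 55.1 TPM. At P14 Apoa4 (11186) and Apoa1 (9337) led with overlapping libraries, then Dgat2 (654.7), Apob (603.6), Apoc3 (568.8) and Apoc2 (471.4), which overlapped. Mttp (280), Mogat2 (251.8) and Sar1b (207.5) followed with overlapping libraries, and Dgat1 was last with 117.1 TPM.

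With rmIl22 none of the 10 genes passed the test when all 6 libraries were used, and 9 of the 10 had a log2 fold change below 0. By limma, 0 of 10 passed an adjusted p of 0.05, against 2.69% of 14456 genes tested (0.443% higher, 2.25% lower). At an unadjusted p under 0.05 there were 3 of the 10, Apoc3, Dgat1 and Dgat2, and 2235 of all genes tested. The median log2 fold change was -0.63 for the 10 genes and -0.05 for all genes tested. Without rmIl22 library 2, 8 of the 10 genes were called, all lower, against 8.88% of 14907 genes (3.24% higher, 5.64% lower), and the median was -0.90 for the 10 genes and -0.00 for all genes. Voom on the recovered reads of all 6 libraries also called 0 of 10. With any other single library left out the count was 0 of 10, while the calls over all genes were 118 without PBS library 2, 121 without rmIl22 library 3, 129 without rmIl22 library 1, 14 without PBS library 1 and 4 without PBS library 3, against 389 with all libraries.

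Apoc3 was the gene nearest to a call. It had 207, 549.6 and 247.3 TPM in rmIl22 libraries 1, 2 and 3, against 858.4, 996.5 and 971.4 TPM in PBS libraries 1, 2 and 3. The groups did not overlap, even with rmIl22 library 2, which was the highest of its group. Apoc3 averaged 334.6 ± 187 TPM with rmIl22 and 942.1 ± 73.5 TPM with PBS (SD, n = 3 each), with a log2 fold change of -1.62 (SE 0.34, limma adjusted p = 0.0586), and -2.05 without rmIl22 library 2 (limma adjusted p = 3.06e-04). Dgat1 was the other gene whose groups did not overlap, which was the case for 21.1% of all genes tested (5.62% higher, 15.4% lower). Without rmIl22 library 2, 9 of the 10 genes did not overlap, all lower, against 40.4% of all genes (19.5% higher, 20.9% lower). Dgat1 had 145.4, 166 and 143.5 TPM in rmIl22 libraries 1, 2 and 3, against 193.7, 200.8 and 228.9 TPM in PBS libraries 1, 2 and 3. Its log2 fold change was -0.45 (SE 0.12, limma adjusted p = 0.112), and -0.52 without rmIl22 library 2 (limma adjusted p = 0.0354).

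Apoa4 had 3066, 21527 and 3473 TPM in rmIl22 libraries 1, 2 and 3, against 12235, 16882 and 14843 TPM in PBS libraries 1, 2 and 3. Library 2 of the rmIl22 group was the highest of all 14 libraries for Apoa4, and the other rmIl22 libraries were the lowest of the injected mice. The log2 fold change was -1.25 (SE 0.70, limma adjusted p = 0.489), and -2.15 without rmIl22 library 2 (limma adjusted p = 5.25e-04). Apoc2 followed the same outline, with 216.8, 1519 and 393.9 TPM in the rmIl22 libraries, against 1041, 1493 and 1340 TPM in the PBS libraries. Its log2 fold change was -1.33 (limma adjusted p = 0.388), and -2.12 without rmIl22 library 2 (limma adjusted p = 0.00305). Apoa1 had 8699, 19372 and 8972 TPM in the rmIl22 libraries, against 12443, 15777 and 14346 TPM in the PBS libraries. The log2 fold change of Apoa1 was -0.30 (limma adjusted p = 0.79), and -0.68 without rmIl22 library 2 (limma adjusted p = 0.0211).

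Mttp had 179.1, 564.1 and 193.7 TPM in rmIl22 libraries 1, 2 and 3, against 435.7, 476.8 and 506.4 TPM in PBS libraries 1, 2 and 3. Again library 2 lay above the PBS libraries and the other rmIl22 libraries below them, for a log2 fold change of -0.81 (limma adjusted p = 0.43), and -1.34 without rmIl22 library 2 (limma adjusted p = 8.88e-04). Apob, which Mttp loads, had 406.3, 1052 and 599.6 TPM in the rmIl22 libraries, against 612.8, 480.4 and 589 TPM in the PBS libraries. The groups overlapped in either set: its log2 fold change was 0.19 (limma adjusted p = 0.871), and -0.18 without rmIl22 library 2 (limma adjusted p = 0.639).

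Dgat2 had 287.9, 571.9 and 319.3 TPM in rmIl22 libraries 1, 2 and 3, against 566.9, 645.9 and 798.1 TPM in PBS libraries 1, 2 and 3. The overlap came from rmIl22 library 2 alone, and the log2 fold change was -0.82 (limma adjusted p = 0.196), and -1.13 without that library (limma adjusted p = 0.00518). Mogat2 had 211.1, 314.5 and 240.7 TPM in the rmIl22 libraries, against 299.3, 331.2 and 380.6 TPM in the PBS libraries. Its log2 fold change was -0.41 (limma adjusted p = 0.325), and -0.57 without rmIl22 library 2 (limma adjusted p = 0.0437). Sar1b had 213.3, 237.2 and 198.8 TPM in the rmIl22 libraries, against 233, 284.3 and 261.5 TPM in the PBS libraries. It passed in neither set, at -0.26 (limma adjusted p = 0.407) and at -0.33 without rmIl22 library 2 (limma adjusted p = 0.166). The authors' deposited table for rmIl22 against PBS lists 1102 genes, each with an adjusted p of at most 0.00999, and none of the 10 is among them.

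**Figure D3:**
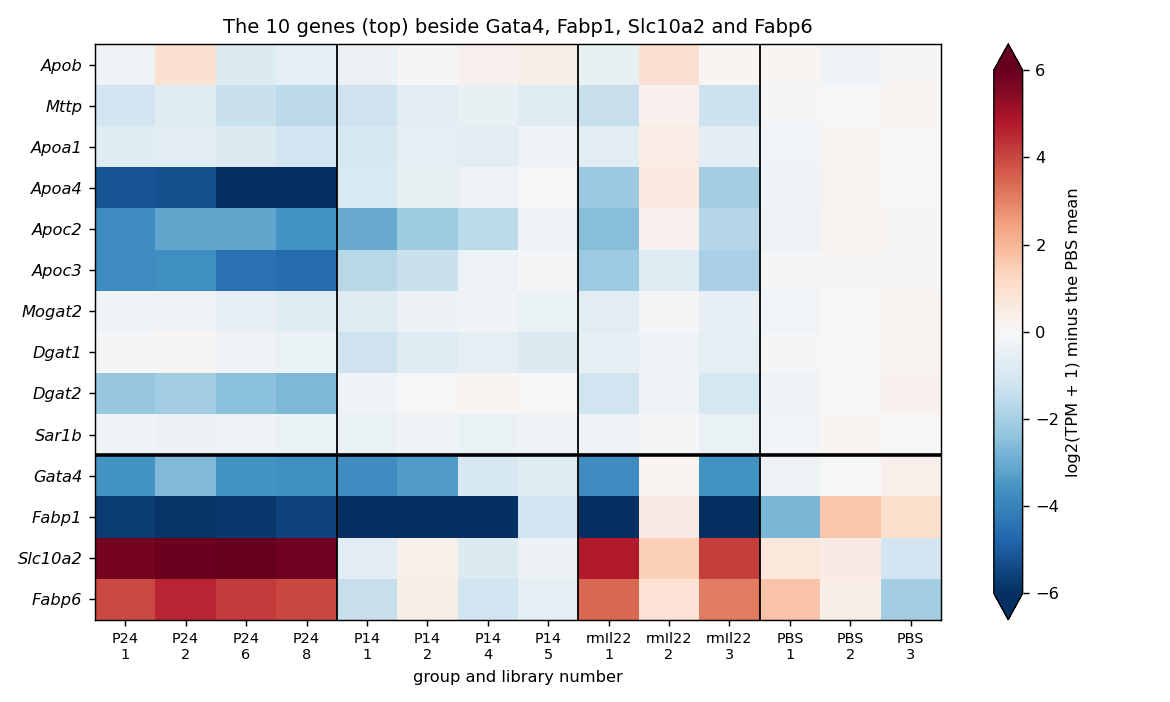
log2(TPM + 1) of the 10 genes (above the thick line) and of the position markers Gata4, Fabp1, Slc10a2 and Fabp6 in each library, as the difference from the PBS mean; columns are groups and library numbers, and colours beyond 6 in either direction are capped. The rmIl22 libraries 1 and 3 are low in Gata4 and Fabp1, high in Slc10a2 and Fabp6, and low in Apoa4 and Apoc2. In all of these rmIl22 library 2 is nearer the PBS libraries. Of the position markers not drawn, Cybrd1 was lowest in rmIl22 library 2, and Slc51b there lay closer to its own group.

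In the injected mice Apoa4, Apoc2, Apoa1 and Mttp were lowest in rmIl22 libraries 1 and 3, the libraries with low Gata4, as the plot of log2 levels beside position markers shows. Fabp1, the liver-type fatty acid binding protein of the upper small intestine, had 2.34, 698.6 and 2.32 TPM in rmIl22 libraries 1, 2 and 3, against 73.2, 1570 and 1029 TPM in PBS libraries 1, 2 and 3. PBS library 1, with Fabp1 at 73.2 TPM, had 12235 TPM of Apoa4. Fabp1 and Gata4 did not always go together: P14 library 4 had 2.29 TPM of Fabp1 and 6.57 TPM of Gata4. All 3 PBS libraries had high Gata4, and rmIl22 library 2 did too. IL-22 and gut position thus cannot be told apart for Apoa4, Apoc2 and Mttp in these injected mice. The same holds for every gene called without rmIl22 library 2. In that set the rmIl22 libraries had low Gata4 and all PBS libraries had high Gata4. Apoc3 had 549.6 TPM in rmIl22 library 2, where Gata4 was at 15.8 TPM, and at least 858.4 TPM in each PBS library. The part of gut position in that difference was not tested.

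The change with age differed from the change with rmIl22 for 4 genes, in a contrast fitted on all 14 libraries, which compares (P24 minus P14) with (rmIl22 minus PBS). The share of all genes called in that contrast was 23.8% of 15702 (6.51% higher, 17.3% lower). For Apoa4 the difference in log2 fold change was -4.45 (SE 0.86, limma adjusted p = 0.00267), and for Dgat2 -1.54 (SE 0.31, limma adjusted p = 0.00318). For Dgat1 the difference was 1.12 (SE 0.21, limma adjusted p = 0.00226), since it was higher at P24 and its mean was lower with rmIl22. With single libraries left out, the calls over all genes in this contrast ran from 2400 to 4997, against 3734 with all libraries. The share of all genes called without rmIl22 library 2 is not given here, so the count in that fit has no background of its own. Without rmIl22 library 2 the number of chylomicron genes called was also 4. Apoa4 was then at -3.54 (limma adjusted p = 0.00101), Dgat2 at -1.23 (limma adjusted p = 0.00185), Dgat1 at 1.18 (limma adjusted p = 0.00174) and Mttp at 0.92 (limma adjusted p = 0.031), and Apoc3 was not called (-1.21, limma adjusted p = 0.0787). With all libraries the Apoc3 difference was -1.64 (limma adjusted p = 0.0453), a call lost in 12 of 23 alternatives. The reference groups of this contrast, P14 and PBS, differ in age and injection, and some levels differed between them. Dgat1 averaged 207.8 TPM with PBS, above its 117.1 TPM at P14 and its 185.1 TPM at P24. Mttp averaged 473 TPM with PBS and 280 TPM at P14, while Dgat2 was close, at 670.3 and 654.7 TPM.

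Ratios within a library do not depend on how libraries were scaled. The pairs were picked after the values were seen. On log2 ratios 10 exact permutation tests, two-sided, were run, and p-values are given with Benjamini-Hochberg adjustment over the 10. That adjustment does not correct for the choice of pairs. With groups this small no adjusted p could fall under 0.05, so the ratios are given as a description. The Apoa4 to Apoa1 ratio was 0.0469, 0.042, 0.0147 and 0.0176 in P24 libraries 1, 2, 6 and 8, against 1.09, 1.11, 1.3 and 1.26 in P14 libraries 1, 2, 4 and 5. The genes were thus about equally abundant in every P14 library. For this ratio at P24 against P14 the exact permutation p was 0.0286, the smallest that 4 against 4 allows (adjusted p = 0.0714). The Dgat2 to Dgat1 ratio averaged 0.687 ± 0.038 at P24 and 5.66 ± 0.502 at P14 (SD, n = 4 each, exact permutation p = 0.0286, adjusted p = 0.0714), so Dgat1 had the higher TPM at P24 and Dgat2 at P14. Mttp over Apob averaged 0.431 ± 0.129 at P24 and 0.465 ± 0.0591 at P14 (SD, n = 4 each, exact permutation p = 0.657).

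In the injected mice the Apoc3 to Apoa1 ratio was 0.0238, 0.0284 and 0.0276 in rmIl22 libraries 1, 2 and 3, against 0.069, 0.0632 and 0.0677 in PBS libraries 1, 2 and 3. For this ratio rmIl22 library 2 lay with its own group (exact permutation p = 0.1, the smallest that 3 against 3 allows, adjusted p = 0.167). Mttp over Apob was 0.441, 0.536 and 0.323 in the rmIl22 libraries, against 0.711, 0.992 and 0.86 in the PBS libraries (exact permutation p = 0.1, adjusted p = 0.167). These groups did not overlap either. The Apoa4 to Apoa1 ratio behaved otherwise: it was 0.352, 1.11 and 0.387 in the rmIl22 libraries, against 0.983, 1.07 and 1.03 in the PBS libraries (exact permutation p = 0.4, adjusted p = 0.5). Dgat2 over Dgat1 was 1.98, 3.45 and 2.23 with rmIl22, against 2.93, 3.22 and 3.49 with PBS (exact permutation p = 0.3, adjusted p = 0.429). Without rmIl22 library 2 each of these 4 ratios separated the groups, all with an exact permutation p of 0.1, unadjusted and the smallest that 2 against 3 allows. Apoc3 over Apoa4 averaged 0.0547 ± 0.0254 with rmIl22 and 0.0649 ± 0.00559 with PBS (SD, n = 3 each, exact permutation p = 0.9), and the groups overlapped without that library too (exact permutation p = 0.4).

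**Figure D4:**
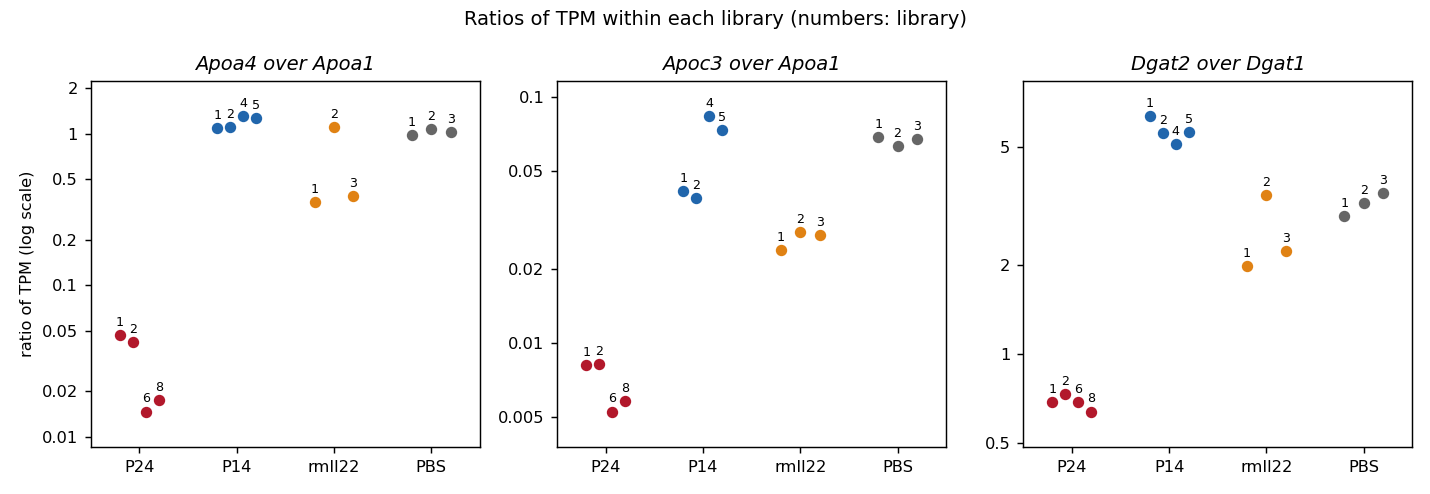
Ratio of TPM between genes within each library (log axis), with library numbers, for Apoa4 over Apoa1, Apoc3 over Apoa1 and Dgat2 over Dgat1 in P24, P14, rmIl22 and PBS. All P24 ratios lie below all P14 ratios; rmIl22 library 2 lies with the PBS libraries for Apoa4 over Apoa1 (1.11) and with its own group for Apoc3 over Apoa1 (0.0284).

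Other genes of the pathway were read from lists. Among 7 tested apolipoproteins outside the 10, 1 was higher at P24 (Apoc4, 0.70), 2 were lower and 4 did not pass, with a median log2 fold change of 0.09. Apom, which carries sphingosine-1-phosphate on lipoproteins, fell by 2.02 on the log2 scale, to 0.17 TPM at P24 against 3.77 TPM at P14 (limma adjusted p = 1.66e-07), and Apoc1 fell by 0.49. Apom also passed with rmIl22, at 0.841 ± 0.155 TPM with rmIl22 and 3.39 ± 0.751 TPM with PBS (SD, n = 3 each), a log2 fold change of -1.24 (limma adjusted p = 0.0189), the 1 call of 7. Without rmIl22 library 2 it was at -1.28 (limma adjusted p = 0.00658), again the 1 call of 7.

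Of 13 genes that help to lipidate Apob or to form lipid droplets, 2 rose at P24, 5 fell and 6 did not pass, with a median of -0.21. Apobec1, the enzyme that edits Apob mRNA, averaged 37.6 TPM at P24 and 19.3 TPM at P14 (log2 fold change 0.93, limma adjusted p = 1.78e-05), and Cideb, a lipid droplet protein that acts in very-low-density lipoprotein lipidation, rose by 0.33. Plin2, a lipid droplet coat protein, averaged 35 TPM at P24 and 297.9 TPM at P14 (log2 fold change -3.05, limma adjusted p = 1.27e-09). Plin3, its relative, averaged 323.9 TPM at P24 and 773.7 TPM at P14 (log2 fold change -1.25). With rmIl22, 0 of 13 passed by limma, and 6 of 13 were lower without rmIl22 library 2.

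Of 22 tested genes for ER exit and the COPII coat, 12 fell at P24, 0 rose and 10 did not pass, with a median of -0.26 that lies at the all-gene median of -0.25. The largest falls were -0.72 for Gosr2, a SNARE between ER and Golgi, and -0.62 for Sec16b, a scaffold of ER exit sites. With rmIl22, 0 of 22 passed, and 3 of 22 were lower without rmIl22 library 2. Of 17 tested genes for fatty acid uptake, activation and glycerolipid synthesis, 6 rose at P24, 5 fell and 6 did not pass, with a median of 0.23. Fabp2, the intestinal fatty acid binding protein, averaged 7949 TPM at P24 and 932.2 TPM at P14 (log2 fold change 3.15, limma adjusted p = 3.50e-07), and Agpat2, an acyltransferase of phosphatidic acid synthesis, rose by 1.57. Acsl3, an acyl-CoA synthetase, averaged 17.7 TPM at P24 and 104.7 TPM at P14 (log2 fold change -2.47), and Agpat3 averaged 9 TPM at P24 and 50.6 TPM at P14 (log2 fold change -2.35). With rmIl22, Agpat3 (-1.16, limma adjusted p = 0.0245) and the fatty acid transporter Slc27a4 (-0.70, limma adjusted p = 0.0493) were lower. They were at -1.33 (limma adjusted p = 0.00221) and -0.76 (limma adjusted p = 0.017) without rmIl22 library 2, and 1 gene of the list rose and 4 fell.

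Of 24 tested transcriptional regulators of enterocyte lipid genes, 5 rose at P24, 12 fell and 7 did not pass, with a median of -0.33. Creb3l3, a membrane-bound activator of Apoa4 and Apoc2 in mouse liver, averaged 44 TPM at P24 and 225.4 TPM at P14 (log2 fold change -2.32, limma adjusted p = 8.08e-07). Plagl2, which mice need for chylomicron export after birth, averaged 6.83 TPM at P24 and 36.8 TPM at P14 (log2 fold change -2.27, limma adjusted p = 1.01e-08). The largest rises were in the fatty acid receptor Ppard (1.76) and the carbohydrate-responsive Mlxipl (1.01). The HNF4 genes Hnf4a (0.43, limma adjusted p = 0.0379) and Hnf4g (0.53, limma adjusted p = 0.00167) also rose. Their part in the fall of Apoa4, whose upstream bases hold the HNF4 core, was not tested. With rmIl22, 0 of 25 passed, and 1 was higher and 7 were lower without rmIl22 library 2. Of 13 tested genes for lipolysis and lipoprotein uptake, 4 rose at P24, 6 fell and 3 did not pass, with a median of -0.26. The largest rises were 1.42 for Angptl4, an inhibitor of lipoprotein lipase, and 1.41 for Lpl, that lipase itself. The largest falls were -1.89 for Angptl8, listed as Gm6484, and -1.07 for Abhd5, the co-activator of cytosolic triglyceride lipase. Both were also lower with rmIl22, at -0.97 (limma adjusted p = 0.0308) and -0.64 (limma adjusted p = 0.0209), as 2 calls of 13. Without rmIl22 library 2 there were 3 calls of 13, all lower, with Angptl8 at -1.12 (limma adjusted p = 0.00295) and Abhd5 at -0.64 (limma adjusted p = 0.0107).

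**Figure D5:**
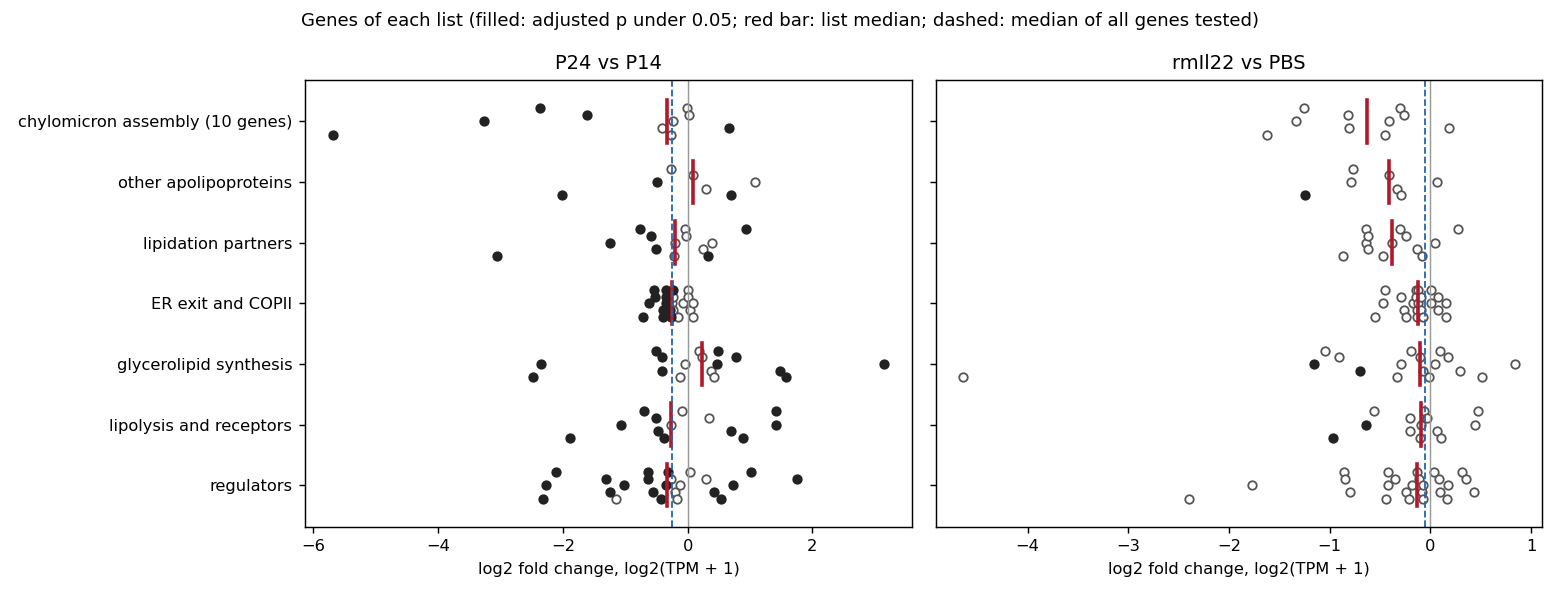
log2 fold change, on the log2(TPM + 1) scale, of each tested gene of the chylomicron set and of 6 pathway lists for P24 against P14 (left) and rmIl22 against PBS (right), with all libraries; the x axes differ in range. Filled points have an adjusted p under 0.05, red bars are list medians and the dashed line is the median of all genes tested (-0.25 and -0.05); at left every list but ER exit and COPII has filled points on both sides of 0.

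Across all 14 libraries the nearest patterns of each gene were sought among 14161 genes, by the root mean square difference of centred log2(TPM + 1). None of the 3 nearest to any of the 10 was another of the 10. Among so many genes, 10 genes picked at random would seldom be near each other either, so that absence is not particular to these 10. For Apoa4, whose own spread was 2.67, the nearest were F10 (0.66), Renbp (0.68) and Gpx3 (0.68). For Dgat2, with a spread of 1.05, they were Fuca1 (0.14), Plagl2 (0.20) and AI464131 (0.20). For Apoc3, with a spread of 1.66, they were Paqr7 (0.34), Fcgrt (0.36) and Spns2 (0.42), and for Apoc2 Prss12 (0.48), Rbp2 (0.48) and Ace (0.52). Mttp was nearest to Acsl5 (0.22), Ifi27l2b (0.24) and Prap1 (0.24), the last of which is on the lipidation list. Apob was nearest to Rnf213, Exoc3l2 and Pcsk5 (0.30 to 0.32), Apoa1 to Fth1, Cst6 and Map2k2 (0.17 to 0.18), Dgat1 to B2m, Ovol1 and Agpat9 (0.11 to 0.14), Mogat2 to Pitpna, Ilvbl and Rmdn3 (0.11 to 0.12), and Sar1b to Yif1a, Dera and Tubd1 (0.07 to 0.08).

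Markers of other tissues were read beside these genes. Liver also makes these apolipoproteins. Of the hepatocyte markers, Alb and Ahsg were at or under 0.181 TPM in all libraries and Apcs was listed at 0. Serpina1b averaged 18.6 TPM at P24 and 67.1 TPM at P14, Fga 0.0948 and 15.9 TPM, and Fgb 0.0828 and 10 TPM, and all 3 fell with age. The part of these markers in the falls of the apolipoproteins was not tested. Of 12 hepatocyte markers, 7 were tested at P24 against P14, with 2 higher (Cyp2e1 and Tat) and 5 lower. The list summed to 28.8 to 52.2 TPM at P24, 76.3 to 120.2 at P14, 43.8 to 113.5 with rmIl22 and 68 to 76.4 with PBS. Adipocytes express Dgat1 and Dgat2, and 6 of 7 tested adipocyte markers were higher at P24 and 1, Cidec, was lower. Their sum was 317.9 to 573.1 TPM at P24, 128.8 to 196.6 at P14, 145.3 to 260.8 with rmIl22 and 175.4 to 405.5 with PBS, and its part in the rise of Dgat1 was not tested. Epithelial markers summed to 15093 to 18291 TPM at P24, 8525 to 10763 at P14, 11332 to 14959 with rmIl22 and 10978 to 12557 with PBS. Of 12 epithelial markers 7 rose with age, 1 fell and 4, among them Epcam (0.08), did not pass. Much of the higher sum lay in keratins. Krt8 averaged 4144 TPM at P24 and 1526 TPM at P14, Krt20 1688 and 81.6 TPM, and Krt19 1522 and 473.2 TPM, while Krt18 fell. The falls of Apoa4, Apoc2, Apoc3 and Dgat2 at P24 thus came with a higher sum of these markers. Whether the share of epithelial cells changed was not tested. Of 6 markers of lymph vessels, which receive chylomicrons, 4 fell and 0 rose at P24, with a sum of 54.9 to 91.1 TPM at P24, 71.6 to 107.5 at P14, 95.7 to 127.2 with rmIl22 and 101.2 to 137.1 with PBS.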

How the data were processed

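RNA sequencing of whole ileum gave 14 libraries in 4 groups, taken from the sample titles, and the labels call the replicates biological. Per the labels, the libraries were stranded and made from total RNA after removal of ribosomal RNA. The authors' deposited table holds TPM for each symbol in each library. Named in the submitters' processing notes are mm10, DESeq2 1.14, FastQC 0.11.2, HTSeq 0.6.1p1 and STAR 2.4.0f. How strand was counted, and with which annotation, is not given in the sources used here. The authors' deposited comparison tables give a log2 fold change and adjusted p-value per gene with decimal commas, which were read as points.

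TPM were tested as log2(TPM + 1) in R 4.3.3 by limma 3.58.1 (trended empirical Bayes, two-sided, each comparison on its own libraries), with Benjamini-Hochberg adjustment over every gene tested and a threshold of 0.05. This scale understates the change of low genes. A gene was tested if it reached a TPM of 1 in 4 or more libraries (P24 against P14) or 3 or more (rmIl22 against PBS, and the contrast of both). Entries with a date number in place of a symbol, 27 in all and at most 0.08% of TPM, were left out. Whole reads were recovered from the TPM for all 31216 genes with a value above 0 (within 0.01 of a whole number), with a median depth of 42.7 M reads. The fits were tested on simulated data.

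The 10 genes, the lists and the markers were chosen with earlier results of these data known. In each list the 2 largest rises and 2 largest falls among called genes are named, beside the list counts. Hnf4a and Hnf4g are also named, because of the motif searched. For each of the 10 genes the 3 nearest patterns are named. Gpat3 and Angptl8 are listed as Agpat9 and Gm6484, matched through RefSeq synonyms. Alternatives were other pseudocounts, filters, scalings and fits, each library left out, and voom on the recovered reads, chosen after seeing the data. Spread between libraries of a group is what the p-values are set against. No per-sample column of the deposited TPM table was left unused. No result met the rules for a closer look, over 20 groups of 4 examined for an outlying library.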

Additional observations from a re-analysis of the deposited data

How the results depend on the processing

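Of 18 alternatives for P24 against P14, the calls of Apoa4, Apoc3, Dgat2 and Apoc2 held in all 18, and that of Dgat1 in 17. The median log2 fold change of all genes was -0.25 as deposited, 0.01 with libraries scaled to their median gene, -0.19 without the 20 most abundant genes and -1.01 when scaled to epithelial markers. The share of calls that were higher moved with it, from 25.1% (2146 higher, 6400 lower) to 49.6% (4205 and 4274) with median scaling and 4.83% (630 and 12419) with epithelial scaling. With median scaling 2 of the 10 genes were called higher, Apoa1 was at 0.06, Apob at 0.03 and Mogat2 at 0.28. With epithelial scaling 9 of the 10 were called, 9 lower and 0 higher, with Sar1b at -0.88 and Dgat1 at -0.23. Mogat2 was at 0.07 without the 20 most abundant genes and 0.04 with voom. Leaving out 1 library at a time gave 5 to 7 called genes (1 higher throughout, 4 to 6 lower), -0.02 to 0.05 for Sar1b and -0.12 to 0.09 for Mogat2. The causes were not tested.

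For rmIl22 against PBS, 0 of the 10 genes were called with all libraries, 1 with a filter at a TPM of 5, 2 in a fit of all 14 libraries, and 0 to 8 with 1 library left out, when Apob ranged from -0.18 to 0.51. The all-gene calls were 1058 in the fit of all 14 libraries and 98 with no filter. Of these calls 16.5% were higher with the deposited scaling (64 higher, 325 lower) and 29.5% without the 20 most abundant genes (77 and 184). A fit with the replicate number as a block called 1 of the 10 genes, lower (Apoc3, limma adjusted p = 0.0438), and 280 of all genes against 389. Same-numbered rmIl22 and PBS libraries correlated at -0.07, 0.33 and -0.05, and the other pairs at -0.34 to 0.40. Not every library correlated best with its own number. With 3 libraries per group these values cannot show whether same-numbered libraries share more than a number. No paired analysis was possible for P24 against P14 because those columns carry no replicate number of the labels.

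For the contrast of both effects, epithelial scaling left 0 genes called higher and put Apoa1 at -0.72, Mttp at -0.39, Sar1b at -0.50 and Mogat2 at -0.38. Leaving out 1 library at a time gave 1 to 2 genes called higher, -0.13 to 0.45 for Apoa1 and -0.89 to 0.51 for Apoc2. The Apoc3 call there had adjusted p-values from 0.0019 to 0.1 over 23 alternatives. The share of calls that were higher was 27.4% (1022 and 2712), 50.2% with median scaling and 3.32% with epithelial scaling. The lowest value of any of the 10 genes rested on 805 reads.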
